A study of Mus musculus with 4 samples.

Results

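A set of 7 small noncoding RNA genes transcribed by RNA polymerase III from promoters that lie partly or wholly outside the transcribed sequence were examined in Tet1 chromatin immunoprecipitation sequencing (ChIP-seq) of mouse spermatogonia. They were Rn7sk (7SK RNA), Rn7s1 and Rn7s2 (7SL RNA), Rny1 and Rny3 (Y RNAs), Rmrp (RNase MRP RNA) and Rpph1 (RNase P RNA). They were picked by name, as single genes of this promoter class, out of 49943 annotated genes on chromosomes 1 to 19, X and Y. No signal threshold was used, but earlier results of these data were known when they were chosen. A gene was counted as having a peak when a summit, the position of highest signal in the peak, lay inside it or within 500 bp of it. All positions are those of mm10.

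A Tet1 ChIP came from Tet1 knockout (KO) mice and another from wild-type (WT) mice, both of strain 129 at 3 months of age. Each had an input library of the same genotype, sequenced without antibody, giving 4 libraries with 1 per group. The cells were spermatogonia from testes, 20000 sorted by flow cytometry per the labels. The knockout allele, the cells in which Tet1 was deleted and the number of mice per library are not given in the sources used here. Tet1 oxidises 5-methylcytosine in DNA. The KO library records what the antibody and procedure recover from knockout cells, in which loss of the Tet1 protein was not checked here.

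The libraries were shallow, with 2235818 KO and 3081692 WT ChIP tags after duplicate removal, and the lists held 247 KO and 373 WT peaks. Median pileups, the number of extended ChIP tags over a summit, were 12 in KO and 8 in WT. Tet1 itself had no peak in either list, with the nearest at 17.2 Mb in KO and 9.47 Mb in WT, which does not check the genotype labels. Of 12 spermatogonia marker genes, 0 had a KO peak and 2 had a WT peak (Dazl and Sohlh1). Over all annotated genes, 0.310% had a KO peak and 0.681% had a WT peak. The WT peaks held 5 and 6 tags at Dazl and 5 tags at Sohlh1, close to the lowest listed pileup of 4 tags. Of 13 markers of other testis cells, 0 had a peak in either list. Peak lists do not measure expression, so these counts do not check the cell type.

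As background, the RNAs of these genes are structural parts of RNA-protein particles. The polymerase III promoters of the 7SK, Y, RNase MRP and RNase P RNA genes are of the external kind, with a TATA box and a proximal sequence element upstream of the start and often a distal octamer bound by the factor Oct-1. The 7SL genes have mixed promoters, with elements inside the transcribed sequence as well as upstream. 7SK RNA holds the elongation factor P-TEFb inactive, 7SL RNA is the scaffold of the signal recognition particle, and Y RNAs bind the Ro60 protein. RNase P RNA cuts the leader from transfer RNA precursors, and RNase MRP RNA acts in the processing of ribosomal RNA.

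Sequence beside 3 of the genes is shown first. The KO summit at Rn7sk and the WT summit at Rmrp fall in these windows, and Rpph1, which had no peak, is shown for comparison. The 3 RefSeq promoter windows of neighbouring genes (GRCm38.p6, the assembly that mm10 is made from, all on the plus strand) reach into or lie beside Rn7sk, Rmrp and Rpph1. None of the 7 genes had a promoter window of its own in the set used. Each runs from 250 bases before to 50 after the start of the neighbour. Capitals mark exact matches to TATAAA and to the octamer ATGCAAAT, searched on both strands (reverse complements TTTATA and ATTTGCAT), with no overlap between the matches. The first is the window of the long noncoding RNA gene C920006O11Rik at chr9:78175664-78175963, which begins 30 bp past the higher-coordinate end of Rn7sk. The second is that of Ccdc107 at chr4:43493115-43493414, which begins 55 bp past that of Rmrp. The third is that of Parp2, a poly(ADP-ribose) polymerase gene, at chr14:50807666-50807965, which overlaps the 106 bp of Rpph1 with the highest coordinates.
C920006O11Rik beside Rn7sk: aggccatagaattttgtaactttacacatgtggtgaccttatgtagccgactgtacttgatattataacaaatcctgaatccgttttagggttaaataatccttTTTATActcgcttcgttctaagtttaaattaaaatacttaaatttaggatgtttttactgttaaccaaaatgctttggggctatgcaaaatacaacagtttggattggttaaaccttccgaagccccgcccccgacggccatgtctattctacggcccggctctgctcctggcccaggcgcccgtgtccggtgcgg
Ccdc107 beside Rmrp: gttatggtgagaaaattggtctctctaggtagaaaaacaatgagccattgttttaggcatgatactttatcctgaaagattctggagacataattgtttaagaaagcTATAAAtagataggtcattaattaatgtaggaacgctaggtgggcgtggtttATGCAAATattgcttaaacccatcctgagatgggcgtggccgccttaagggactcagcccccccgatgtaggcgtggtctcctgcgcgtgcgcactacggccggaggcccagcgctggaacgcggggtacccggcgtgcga
Parp2 overlapping Rpph1: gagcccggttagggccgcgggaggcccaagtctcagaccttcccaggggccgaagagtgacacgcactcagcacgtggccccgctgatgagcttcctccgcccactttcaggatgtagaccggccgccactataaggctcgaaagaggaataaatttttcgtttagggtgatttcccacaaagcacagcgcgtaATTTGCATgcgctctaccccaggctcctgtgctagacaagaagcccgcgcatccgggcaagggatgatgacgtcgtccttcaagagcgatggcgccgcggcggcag

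The octamer occurred in the Ccdc107 window beside Rmrp (bases 160 to 167 from the 5′ end) and the Parp2 window over Rpph1 (bases 195 to 202). TATAAA occurred in the C920006O11Rik window beside Rn7sk (bases 105 to 110, reverse strand) and the Ccdc107 window (bases 108 to 113). The windows with TATAAA begin 30 bp past Rn7sk and 55 bp past Rmrp, so bases nearer to these genes were not searched. Only exact matches were marked, and no match was assigned to a promoter of the 7 genes. Across all 32851 promoter windows in the table, 13.6% held TATAAA and 1.74% held the octamer. CpG dinucleotides are the sites at which cytosine is mostly methylated in mammals. They numbered 14, 17 and 25 in the C920006O11Rik, Ccdc107 and Parp2 windows, against a median of 7 over all windows. These counts describe promoter windows of the neighbours and not promoters of the small RNA genes. The share of all windows with fewer CpGs was 63.7%, 68.6% and 81.6% in the same order. These are matches of letters and not evidence of a bound factor.

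Of the 7 genes, 5 had a peak in at least 1 list. In the KO list 3 of 7 had one (Rn7sk, Rn7s1 and Rny1), where 0.310% of all annotated genes did. In the WT list 4 of 7 had one (Rn7sk, Rn7s1, Rn7s2 and Rmrp), where 0.681% of all genes did. Rn7sk and Rn7s1 had a peak in both lists, 2 of 7 genes against 0.184% of all genes. These counts go by distance alone. Both summits at Rn7s1 lay nearer to the protein-coding gene Rps29, and the WT summit at Rmrp lay nearer to the protein-coding gene Ccdc107. The annotated genes of all classes include many that are never transcribed by polymerase III. For transfer RNA genes the counts were 58 of 408 (14.2%) in KO and 75 of 408 (18.4%) in WT. For other annotated small nuclear RNA genes they were 9 of 1003 (0.897%) and 15 of 1003 (1.496%). Both classes take every gene so annotated, without selection by expression or promoter type, whereas the 7 genes were listed by name. The difference between the 7 genes and these classes was not tested. Because the 7 genes were chosen with earlier results of these data known, their shares are a description only.

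**Figure D1:**
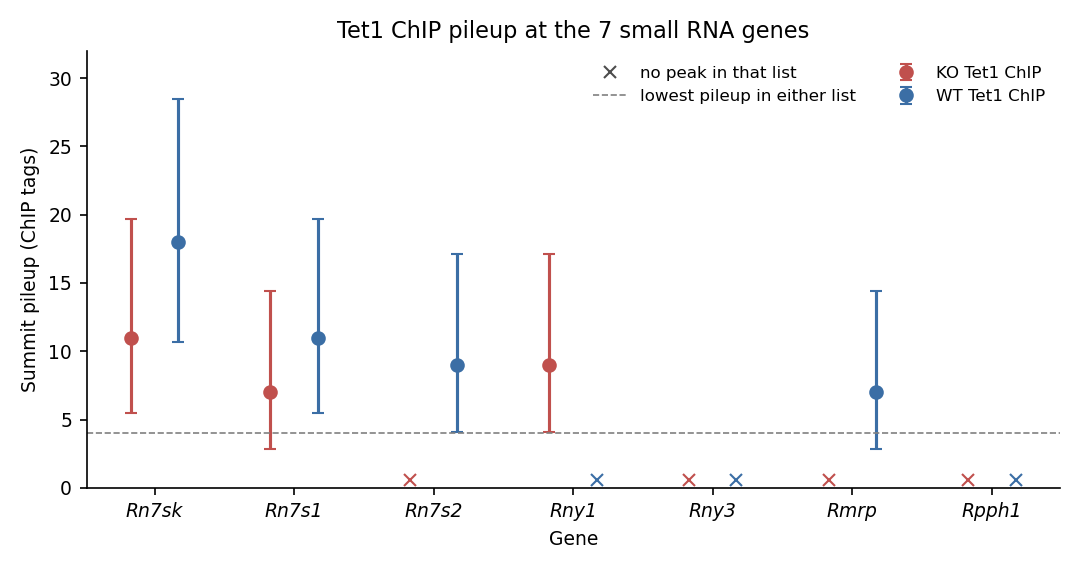
Summit pileup in ChIP tags at each of the 7 genes in the KO (red, left) and WT (blue, right) Tet1 ChIP, with exact Poisson 95% intervals; crosses mark a gene with no peak in that list and the dashed line the lowest pileup in either list, 4 tags. Pileups run from 7 to 11 tags in KO and from 7 to 18 tags in WT, and the intervals of both genotypes overlap at Rn7sk and at Rn7s1.

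Rn7sk (gene ID 19817, chr9:78175302-78175633, annotated as a small nuclear RNA gene of 332 bp) had the highest pileup of the 7 genes in each list. Its pileup was 11 tags in KO (exact Poisson 95% interval 5.49 to 19.7), with a fold enrichment over input of 7.51 and q = 1.2e-07. In WT it was 18 tags (10.7 to 28.4), with a fold of 10.2 and q = 2.6e-14. It ranked 27 of 247 KO peaks and 17 of 373 WT peaks by fold, but 121 in KO and 31 in WT by q. The KO pileup was the lower of the pair, and the intervals overlapped. Scaled by the ChIP tags of each library, the KO/WT ratio was 0.842, with an exact conditional 95% interval of 0.360 to 1.88 that holds 1.

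The KO peak at Rn7sk (78175550 to 78175849) lay wholly within the WT peak (78175494 to 78175880). The KO summit stood 52 bp past the higher-coordinate end of the gene, and the WT summit 19 bp inside that same end, 71 bp away. In the sequence above, the KO summit is at base 22 of the C920006O11Rik window. The start of that long noncoding RNA gene lay 229 bp from the KO summit and 300 bp from the WT summit, so both summits were nearer to Rn7sk. The input background was 2.41 times the genome-wide level in KO and 2.55 times in WT. That is 1 input tag over the summit in each genotype, which the scaling of the input turns into 0.598 tags in KO and 0.869 tags in WT.

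Rn7s1 (gene ID 103948, chr12:69159295-69159593) was the other gene with a peak in both lists. It had 7 tags in KO (2.81 to 14.4), a fold of 5.01 and q = 0.0067. It had 11 tags in WT (5.49 to 19.7), a fold of 7.90 and q = 3.4e-08. The KO peak ranked 111 of 247 by fold and was the weakest of the 7 peaks by fold and by q, while the WT peak ranked 52 of 373. By q the ranks were 207 in KO and 99 in WT. The scaled KO/WT ratio was 0.877 (0.288 to 2.48). Summed over Rn7sk and Rn7s1 there were 18 KO and 29 WT tags, a ratio of 0.856 (0.447 to 1.59). Only genes that passed the caller in both libraries enter this sum, and its interval allows the KO signal to be less than 0.5 or more than 1.5 times the WT signal.

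Both summits at Rn7s1 lay before its lower-coordinate end, at 69 bp in KO and 117 bp in WT. They were 48 bp apart, and the KO peak (69159090 to 69159389) lay wholly within the WT peak (69159081 to 69159436). Rps29, a gene for a protein of the small ribosomal subunit, has its higher-coordinate end there, at 69159186. Gene spans were read without strand, so whether this is where Rps29 transcription starts or stops is not given here. The KO summit was 40 bp outside Rps29, and the WT summit 8 bp inside it. The peaks therefore cannot be given to Rn7s1 rather than to Rps29 from position alone.

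Rn7s2 (gene ID 103949, chr12:69361183-69361481), the other 7SL gene, lies 202 kb from Rn7s1 and had a peak in the WT list alone. The KO list had none within 500 bp, its nearest summit being that at Rn7s1. The WT pileup was 9 tags (4.12 to 17.1), with a fold of 7.06 and q = 1.6e-06. The peak ranked 68 of 373 by fold and 121 by q. The WT summit was 39 bp past the higher-coordinate end of the gene, and no other annotated gene lay within 500 bp of it. At equal signal per tag, 9 WT tags correspond to 6.53 tags in KO, and the lowest KO pileup listed was 4 tags. Here and at the genes below, a peak in 1 list and none in the other does not show a difference between the genotypes, since the tags in the other library are not known. Rn7s1 and Rn7s2 are both 299 bp long and encode copies of the same RNA, and how tags that match both were treated is not given in the sources used here. Values at the pair are uncertain for that reason.

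Rny1 (gene ID 19872, chr6:47788070-47788180), one of the Y RNA genes, had a peak in the KO list alone. It held 9 tags in KO (4.12 to 17.1), with a fold of 7.36 and q = 3.2e-07. The peak ranked 28 of 247 by fold but 125 by q. The WT list had no summit within 500 bp, and its nearest was 9.89 kb away. At equal signal per tag, 9 KO tags correspond to 12.4 in WT, where the lowest listed pileup was also 4 tags. The WT input at Rny1, on which the number of tags needed depends, is not known. The KO summit was 18 bp past the higher-coordinate end of the gene, and the peak covered 75.7% of its 111 bp, the largest share among the 7 peaks.

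Rny3 (gene ID 19874, chr6:47781624-47781724), the other annotated Y RNA gene, lies 6345 bp from Rny1 and had no peak in either list. Its nearest summits were at 6474 bp in KO, the summit at Rny1 itself, and at 3448 bp in WT. That WT peak (47778003 to 47778557) had 14 tags and a fold of 5.48, and its input background was 5.09 times the genome-wide level. Within 20 kb on either side of Rny3 the KO list held 3 peaks and the WT list 2, and the strongest of each lay farthest off, with 70 tags at 18260 bp in KO and 67 tags at 18254 bp in WT. The input background there was 12.03 times the genome-wide level in KO and 20.4 times in WT, while at the Rny1 peak it was 1.44 times in KO.

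Rmrp (gene ID 19782, chr4:43492785-43493059) had a peak in the WT list alone, and the nearest KO summit on chromosome 4 was 32.2 Mb away. The WT pileup was 7 tags (2.81 to 14.4), with a fold of 5.96 and q = 0.00015. The peak ranked 100 of 373 by fold and 162 by q. At equal signal per tag, 7 WT tags correspond to 5.08 in KO, close to the lowest listed pileup of 4. The summit was 224 bp past the higher-coordinate end of Rmrp, the largest distance among the 7 peaks. It was 57 bp from the lower-coordinate end of the Ccdc107 span, and so nearer to that gene. From position alone the peak cannot be given to Rmrp rather than to Ccdc107. The summit fell at base 169 of the Ccdc107 window printed above, next to the octamer at bases 160 to 167. The input background was at the genome-wide level.

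Rpph1 (gene ID 85029, chr14:50807447-50807771) had no peak in either list, and its nearest summits were 256 kb away in both. A further 3 RNase P RNA genes are annotated (Rprl1, Rprl2 and Rprl3), and 0 of 3 had a peak in KO or WT. The Parp2 window over Rpph1 held an octamer and more CpGs than the windows beside Rn7sk and Rmrp. With a lowest listed pileup of 4 tags, absence from a list means that no signal passed the caller at this depth, not that none was present.

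**Figure D2:**
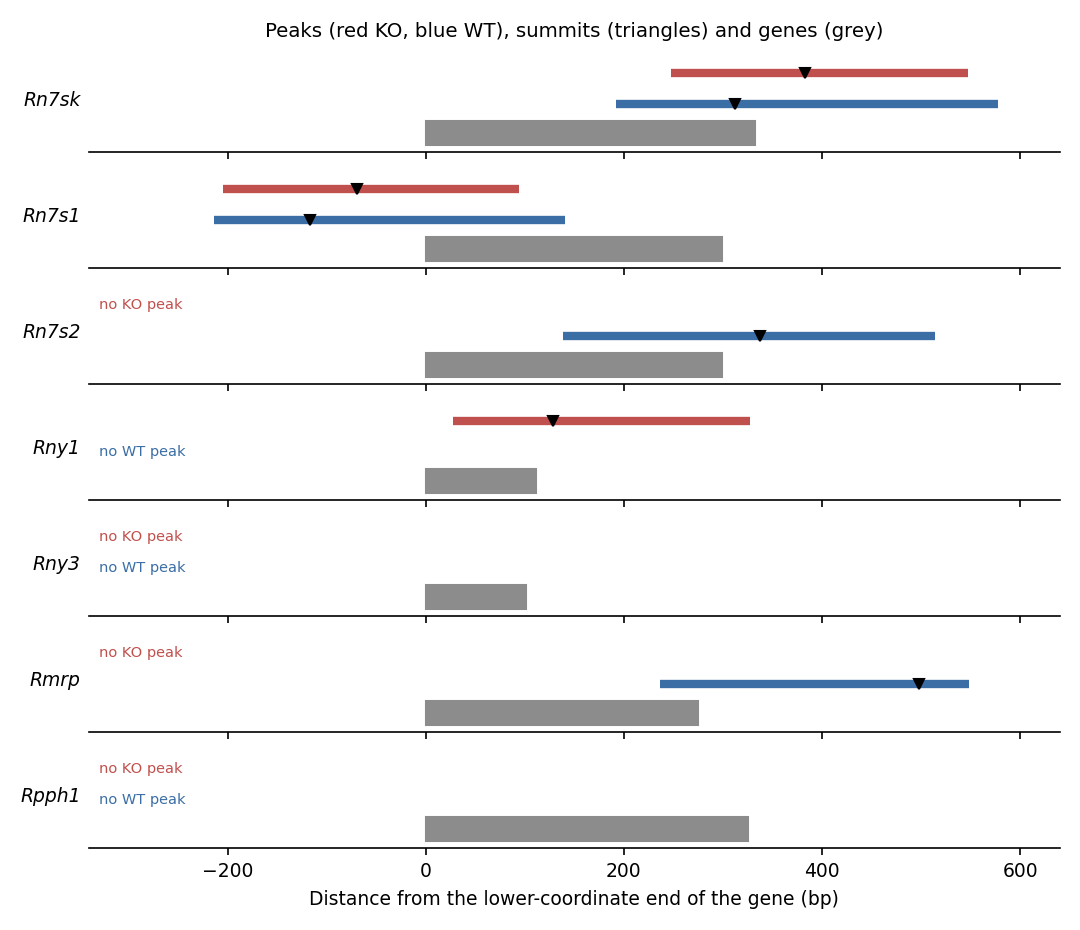
Position of each KO (red) and WT (blue) peak relative to the gene (grey bar), in bp from the lower-coordinate end of the gene, with triangles at the summits. Of the 7 summits 1 lay inside its gene, the WT summit at Rn7sk, and the others lay 18 to 224 bp outside.

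Most of the 7 summits were at the flank of the gene. In all, 0 of 3 KO summits and 1 of 4 WT summits lay inside, although all 7 peaks overlapped the gene by at least 39 bp. Among peaks at transfer RNA genes, 10 of 40 KO and 11 of 49 WT summits lay inside the gene, and among those at other small nuclear RNA genes 3 of 9 and 5 of 15 did. Peak widths were 300 to 301 bp in KO and 313 to 387 bp in WT, at or above the extended fragment length of 300 bp in KO and 299 bp in WT. Their input background ran from 1.44 to 2.41 times the genome-wide level in KO and from the genome-wide level itself to 2.55 times in WT. Fragment length limits how closely a summit places the signal, and summit positions of 7 to 18 tags are correspondingly loose.

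**Figure D3:**
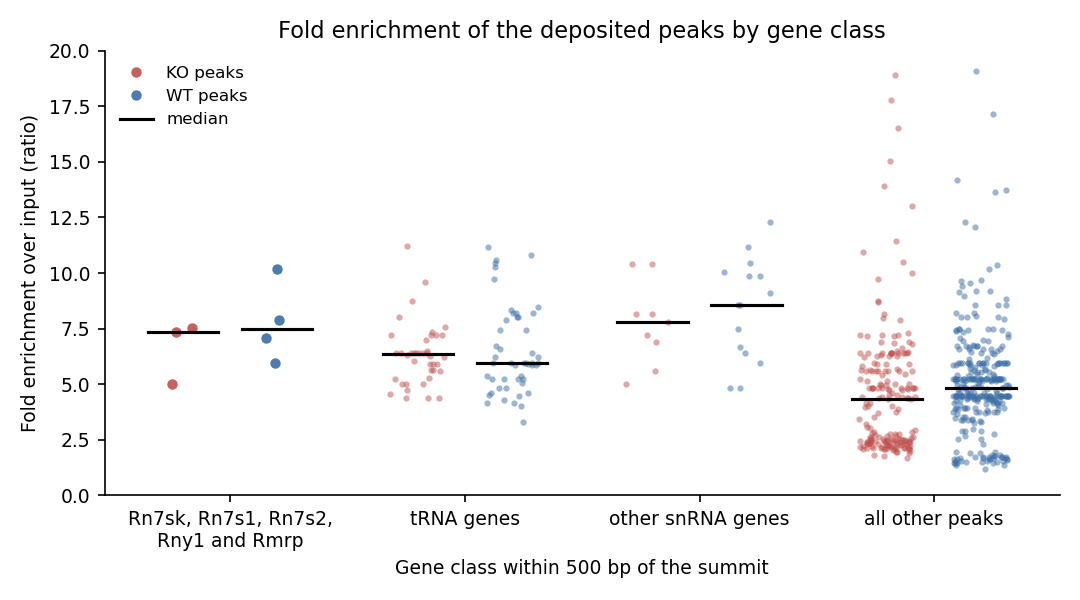
Fold enrichment over input of every deposited peak, by the class of gene within 500 bp of its summit, for KO (red, left) and WT (blue, right); black lines are medians. Peaks at Rn7sk, Rn7s1, Rn7s2, Rny1 and Rmrp have folds of 5.01 to 7.51 in KO and 5.96 to 10.2 in WT, inside the range of peaks at transfer RNA genes.

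By fold the peaks fell inside the range of those at other small RNA genes. The median fold was 7.36 over the 3 KO peaks and 7.48 over the 4 WT peaks. It was 6.36 in KO and 5.96 in WT at transfer RNA genes, 7.79 and 8.56 at other small nuclear RNA genes, and 4.35 and 4.82 over all other peaks. That last class includes peaks of low fold in high-input regions. At chr9:3000174-3000727 the KO fold was 2.26, with an input background 862 times the genome-wide level. Peaks within 500 bp of protein-coding genes, some of them also at small RNA genes, had median folds of 5.60 in KO and 5.22 in WT. Median pileups were 9 in KO and 10 in WT at these genes, against 7 and 8 at transfer RNA genes and 10 and 14 at other small nuclear RNA genes.

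The genes with the most similar pair of folds were found among 57 other peak pairs at annotated genes, each pair being a KO and a WT peak that overlapped 1 to 1. Likeness was the distance between the log2 folds in the 2 ChIP libraries. For Rn7sk the nearest were the transfer RNA gene n-TRccg1 (folds of 7.57 in KO and 9.71 in WT, distance 0.067), the small nuclear RNA gene Gm25679 (7.79 and 9.87, distance 0.067) and Snrnp70, which encodes a protein of the U1 particle (7.89 and 9.63, distance 0.11). For Rn7s1 they were the cluster of n-TAagc14, n-TYgta1 and n-TYgta2 (5.01 in KO and 8.32 in WT, distance 0.076), Ube2c, a ubiquitin-conjugating enzyme gene (4.81 and 8.20, distance 0.080), and the pair of Psma3 and n-TKctt17 (4.73 and 7.46, distance 0.12). Each distance is a description over 2 libraries, with no error attached.

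The protein genes of the same pathways were counted in the same way. Of 60 genes for RNA polymerase III and its factors, the 7SK particle, the signal recognition particle, the Ro and La proteins and the RNase P and MRP proteins, 0 had a KO peak and 1 had a WT peak. Among them, 0 of the 30 polymerase III and factor genes, the 7 genes of the 7SK particle, the 10 of the signal recognition particle and the 2 for Ro60 and La (Ssb) had a peak in either list. The exception was Pop7, which encodes a protein shared by RNase P and RNase MRP and was 1 of 11 such genes. Its WT peak (chr5:137502259-137502575) had 9 tags (4.12 to 17.1), a fold of 7.46 and q = 2.7e-07, with a summit 8 bp from the gene. The shares over the 60 genes were 0% in KO and 1.67% in WT, beside 0.310% and 0.681% of all annotated genes. Of 5 matched genes for other polymerase III RNAs (Rnu6, Bc1, Vaultrc5, Rn4.5s and Rn5s), 0 had a KO peak, and Rn4.5s had a WT peak of 22 tags at a fold of 3.25, with an input background 17.8 times the genome-wide level.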

How the data were processed

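Tet1 ChIP-seq peaks of KO and WT spermatogonia were analysed. Per the file headers, MACS 2.1.1.20160309 called KO and WT peaks separately, against the matching input (not pooled, q cutoff 0.5, human effective genome size, 1 tag kept per position and strand, larger library scaled to the smaller). The submitters' processing notes name Trim Galore, Bowtie2, SAMtools, deepTools, MACS2 and mm10. The deposited pileup is a signal, the unscaled ChIP tags over a summit. The deposited fold enrichment is a ratio of pileup plus 1 to local input background plus 1. The deposited −log10 p-values and −log10 q-values are Poisson values and their Benjamini-Hochberg adjustment. All these peak scores are the authors'.

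The input background was recovered here from pileup and fold, and the Poisson p recomputed from it was within 5% of the deposited one for 247 of 247 KO and 373 of 373 WT peaks. Filtered input tags were 3739856 in KO and 3546238 in WT. Gene spans came from RefSeq (GRCm38.p6) without strand. Pileups have exact Poisson and ratios exact conditional 95% intervals, covering counting error only, since 1 library per group allows no test between genotypes. Named genes were all 7 genes, genes within 500 bp of their summits, the 3 most alike pairs of folds for each gene with a peak in both lists, and list genes with a peak. The genes and lists were chosen with earlier results of these data known. Gene assignment and the ratio intervals were tested on simulated data, the latter with counts not selected by a peak caller. The Poisson intervals of pileups were not tested in this way. Python 3.11.15, SciPy 1.17.1 and pandas 2.3.3 were used.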

Additional observations from a re-analysis of the deposited data

How the results depend on the processing

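With a summit required inside the gene, 0 KO genes, 1 WT gene (Rn7sk) and 0 genes in both lists were left, against 3, 4 and 2 within 500 bp. Windows of 1000 and 3000 bp, any base of the peak within 500 bp, a q of at most 0.05 or 0.01 and a fold of at least 5 each gave the same 3 KO and 4 WT genes. The 2 genes in both lists stayed 2 with peaks overlapping by 1 bp or by 50% of each. The summed KO/WT ratio of 0.856 ran from 0.621 (no depth scaling) to 0.889 (all tags before filtering), and was 0.877 without Rn7sk and 0.842 without Rn7s1. With a mouse effective genome size, chosen after seeing the data, the lowest −log10 p of the 7 peaks was 6.62 in KO and 7.25 in WT. No paired analysis was possible because each group had 1 library. Pileups of 7 to 18 tags limit every ratio, and an absent peak gives no value for the signal there.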
